A study of Mus musculus with 4 samples.

Results

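A set of 10 genes of glucose uptake and glycolysis was followed here: the glucose transporter Slc2a1, the hexokinases Hk1 and Hk2, the aldolase Aldoa, the phosphoglycerate mutases Pgam1 and Pgam2, the enolases Eno1 and Eno3, the pyruvate kinase Pkm and the lactate dehydrogenase Ldha. They were chosen by gene symbol, with earlier results of these data known. All 10 were found, each as 1 row, among the 22565 genes of the deposited table. RNA had been sequenced from alveolar epithelial type II (AT2) cells, the surfactant-secreting cells of the lung alveolus, sorted by flow cytometry from untreated mice 6 months old. There were 2 wild-type (WT) libraries and 2 libraries titled KO, from mice described as a conditional knockout of the ubiquitin ligase subunit gene Fbxo45. The genotype field of KO replicate 1 named Fbxo45 and that of KO replicate 2 named Fbxo46. The promoter or cell type behind the conditional deletion, the strain and the animal number were not stated in the labels. Whether replicates came from different mice is likewise unstated, so the p-values below reflect differences among libraries that could be technical alone.

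Levels are given in FPKM, the authors' fragment value scaled to transcript length and sequencing depth, and differences between groups as log2 values fitted by edgeR to fragment counts. Fbxo45 stood at 4.60 and 5.91 FPKM in the WT libraries, against 4.41 FPKM for KO replicate 1 and 7.58 FPKM for KO replicate 2, so neither KO library was below both WT libraries by more than their own spread. The edgeR log2 difference was 0.16 ± 0.31 (SE, adjusted p = 0.999). Fbxo46 ranged from 3.79 to 4.80 FPKM over the 4 libraries. The deleted exons were not stated, so a whole-gene value need not report on the deletion, and the libraries are called KO-labelled throughout. Library totals were 4167114 and 8200175 fragments in WT and 9507432 and 7066424 fragments in KO-labelled replicates 1 and 2. The 13 AT2 markers were present in every library and summed to 162985 and 156873 FPKM in the WT pair, 109742 FPKM in KO-labelled replicate 1 and 152611 FPKM in KO-labelled replicate 2. The surfactant protein gene Sftpc carried most of that gap, and the other 12 markers summed to 61441, 61889, 55285 and 64927 FPKM in the same order. KO-labelled replicate 1 also stood apart in muscle genes, as described beside the results this touches. In these bulk libraries, fewer cells of a type and less RNA per cell cannot be told apart.

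Glycolysis splits glucose into pyruvate in the cytosol and yields ATP and NADH, and lactate dehydrogenase turns pyruvate into lactate while restoring NAD+. Several steps have more than one gene. Pgam1 and Eno1 are the widely expressed forms of mutase and enolase, while Pgam2 and Eno3 encode the forms that predominate in skeletal muscle. AT2 cells use carbon from glucose both for energy and for the lipids of surfactant.

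The muscle and widely expressed forms are separate genes with no long stretch in common, which bears on how reads were assigned between them. The first 120 coding bases of each pair, from the GENCODE M21 annotation of GRCm38, are shown 5′ to 3′ from the start codon, with capitals at the bases that differ within the pair.
Pgam1: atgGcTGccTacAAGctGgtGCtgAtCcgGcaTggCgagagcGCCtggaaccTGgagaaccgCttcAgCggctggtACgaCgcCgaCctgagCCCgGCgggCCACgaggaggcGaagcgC
Pgam2: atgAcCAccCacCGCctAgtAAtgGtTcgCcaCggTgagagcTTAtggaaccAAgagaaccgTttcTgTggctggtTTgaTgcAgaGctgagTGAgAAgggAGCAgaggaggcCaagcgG
Eno1: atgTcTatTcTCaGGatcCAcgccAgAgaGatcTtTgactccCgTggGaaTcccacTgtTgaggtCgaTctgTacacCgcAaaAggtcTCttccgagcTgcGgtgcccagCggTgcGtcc
Eno3: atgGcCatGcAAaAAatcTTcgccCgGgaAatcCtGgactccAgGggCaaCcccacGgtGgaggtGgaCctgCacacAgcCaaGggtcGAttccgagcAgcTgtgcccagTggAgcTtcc
Within these stretches 39 bases differed between Pgam1 and Pgam2, and 33 between Eno1 and Eno3. Over the whole aligned coding sequence, identity was 74.7% for the mutases, 76.7% for the enolases and 70.7% for Hk1 against Hk2. The longest identical run was 28, 20 and 27 bases, and no window of 100 bases was shared within any of these 3 pairs. Other copies were closer: 33.9% of the 100-base windows of Pgam1 transcripts also occurred in other genes, chiefly Pgam1-ps2, and 20.4% of those of Eno1, chiefly Eno1b. For Pkm the share was 12.3% and for Ldha 0.59%, so the levels of these 4 genes depend on how the authors counted reads that match several places.

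The RefSeq promoter windows of the muscle forms are also shown, because Pgam2 and Eno3 had the largest differences. Each runs from 250 bases before to 50 after the annotated start in GRCm38.p6, 5′ to 3′ on the gene's strand, and capitals mark matches to CANNTG, the E-box letters bound by basic helix-loop-helix factors. Pgam2 lies at chr11:5803747-5804046 on the minus strand and Eno3 at chr11:70656926-70657225 on the plus strand.
Pgam2 promoter: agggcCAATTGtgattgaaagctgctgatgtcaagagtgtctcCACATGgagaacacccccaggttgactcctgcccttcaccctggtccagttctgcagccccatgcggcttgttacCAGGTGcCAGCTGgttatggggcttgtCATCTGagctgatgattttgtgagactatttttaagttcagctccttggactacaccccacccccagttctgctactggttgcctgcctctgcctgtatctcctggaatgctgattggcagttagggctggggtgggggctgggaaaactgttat
Eno3 promoter: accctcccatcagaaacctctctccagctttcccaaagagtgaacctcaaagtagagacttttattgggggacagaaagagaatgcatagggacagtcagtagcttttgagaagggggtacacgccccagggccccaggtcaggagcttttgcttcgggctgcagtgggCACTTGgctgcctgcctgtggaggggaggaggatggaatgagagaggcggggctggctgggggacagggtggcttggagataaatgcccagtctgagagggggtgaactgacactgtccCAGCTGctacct
The Pgam2 window held 5 CANNTG matches and the Eno3 window 2, where 72.3% of all 32544 windows held at least 1 match, 39.6% at least 2 and 2.08% at least 5. CANNTG reads alike in form on both strands, so each place was counted once. A match to the MEF2 consensus on either strand was found once in the Pgam2 window, at -80 from the start, and not in the Eno3 window, against 3.16% of all windows. The hypoxia response letters ACGTG, searched on both strands, occurred in 19.7% of all windows and in neither of these. These matches describe letters and not binding.

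Pgam2 was the member that differed most between the groups' means, and nearly all of that came from 1 library. Its level was 0.909 and 0.458 FPKM in the WT libraries, 30.8 FPKM in KO-labelled replicate 1 and 2.08 FPKM in KO-labelled replicate 2. The fragments behind these values numbered 3, 3, 270 and 11. Both KO-labelled libraries were thus above both WT libraries, with replicate 1 far above replicate 2. Pgam2 lies on chromosome 11 from 5801640 to 5803733 on the minus strand (GRCm38, GENCODE M21, as for all gene positions given), and its row in the table carries a locus of 493 kb shared by 12 rows, so how the authors divided reads there is uncertain. In CPM, which scales fragments to a common library total, KO-labelled replicate 1 was 58.5 times the pooled WT libraries, with an exact 95% interval of 26.6 to 161, and replicate 2 was 3.21 times, with an interval of 1.09 to 10.6. These intervals cover counting error only.

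With edgeR's quasi-likelihood test over all 4 libraries, the log2 difference of Pgam2, KO-labelled minus WT, was 4.85 ± 1.46 (SE, adjusted p = 0.999). It therefore did not pass the threshold of 0.05 after Benjamini-Hochberg adjustment over 11705 genes. DESeq2 gave the same gene an adjusted p of 0.0229, and it was the only gene called higher by DESeq2, at 0.00652% of 15326 genes. In edgeR the gene passed the filter on low counts through the KO-labelled libraries alone, 2 of 2 against 0 of 2 WT libraries. Its direction there was fixed by the filter, which DESeq2 did not use. Without KO-labelled replicate 1 the edgeR log2 difference was 1.61 ± 1.21 (SE, adjusted p = 0.435), and without KO-labelled replicate 2 it was 5.80 ± 0.43 (SE, adjusted p = 9.78e-08). In each of these fits the lone KO-labelled library is assumed to vary like the WT libraries.

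Eno3, the muscle enolase, was high in KO-labelled replicate 1 alone. It stood at 4.37 and 4.65 FPKM in the WT pair, 48.4 FPKM in KO-labelled replicate 1 and 4.14 FPKM in KO-labelled replicate 2, from 17, 42, 753 and 37 fragments. The groups overlapped by FPKM, since replicate 2 was below both WT libraries, and by CPM replicate 2 was just above them. The CPM of replicate 1 was 16.6 times pooled WT (95% interval 12.7 to 22.0) and that of replicate 2 was 1.10 times (0.707 to 1.68). Eno3 lies on chromosome 11 from 70657202 to 70662513 on the plus strand, with a locus of its own in the table. The ratio of its deposited count to FPKM, which follows the length the authors used, ran from 6.77 to 11.5 over the libraries, so the FPKM and count scales differ for this gene. Its edgeR log2 difference was 3.16 ± 1.13 (SE, adjusted p = 0.999), and without KO-labelled replicate 1 it was 0.18 ± 0.50 (SE, adjusted p = 0.859). Without KO-labelled replicate 2 it was 4.06 ± 0.23 (SE, adjusted p = 2.92e-09).

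**Figure D1:**
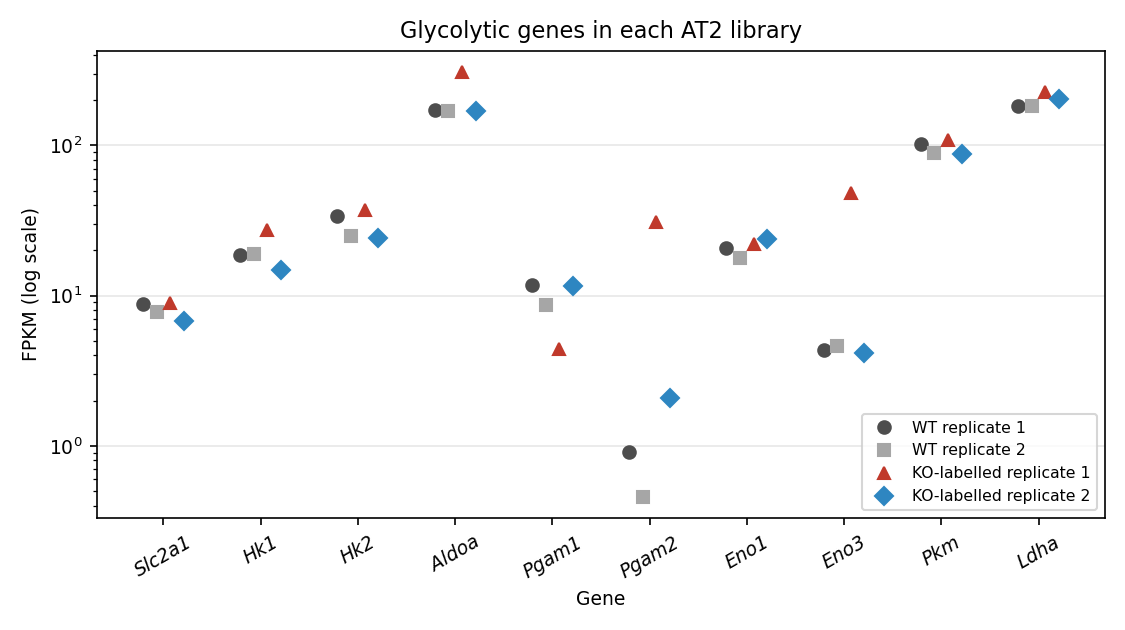
FPKM (log scale) of each of the 10 genes, 1 point per library, with WT in greys, KO-labelled replicate 1 as red triangles and replicate 2 as blue diamonds. Pgam2 and Eno3 reach 30.8 and 48.4 FPKM in KO-labelled replicate 1, while Pgam1 is lowest there at 4.42 FPKM.

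The widely expressed partners did not follow the muscle forms. Pgam1 was at 11.8 and 8.71 FPKM in the WT pair, 4.42 FPKM in KO-labelled replicate 1 and 11.7 FPKM in KO-labelled replicate 2. Replicate 1 was the lowest of the 4 libraries and replicate 2 lay within the WT range, so the groups overlapped. Pgam1 in replicate 1 was 0.491 times pooled WT by CPM (95% interval 0.382 to 0.628), from 91 fragments. The AT2 marker Sftpc was also lowest in that library, at 54458 FPKM against 87684 FPKM or more in the others. Sftpb and Lyz2 were there at 1.06 and 0.970 times pooled WT by CPM. Of all 13 AT2 markers, 11 had a negative and 2 a positive edgeR log2 difference without KO-labelled replicate 2, with a median of -0.12. The part of AT2 content in the result was not tested. Pgam1 lies on chromosome 19 from 41911923 to 41918660 on the plus strand. The edgeR log2 difference was -0.37 ± 0.44 (SE, adjusted p = 0.999) with all libraries, -1.08 ± 0.29 (adjusted p = 0.0189) without KO-labelled replicate 2 and 0.15 ± 0.25 (adjusted p = 0.748) without KO-labelled replicate 1, a change of sign. Eno1 (chromosome 4, 150236721 to 150248879, plus strand) was at 20.6 and 17.7 FPKM in the WT pair and 22.2 and 23.8 FPKM in KO-labelled replicates 1 and 2. Both KO-labelled libraries were above both WT libraries, by a small margin. Its edgeR log2 difference was 0.26 ± 0.20 (SE, adjusted p = 0.999), and it was 0.23 without KO-labelled replicate 1 and 0.32 without replicate 2, positive in each but not past the threshold in any.

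Which form of each enzyme made up most of the transcripts differed between libraries on the FPKM scale, which is per length. Pgam2 made up 7.16% and 4.99% of the summed FPKM of Pgam1 and Pgam2 in WT, 87.4% in KO-labelled replicate 1 and 15.2% in replicate 2. Eno3 made up 17.2% and 20.3% of Eno1, Eno2 and Eno3 in WT, 68.3% in KO-labelled replicate 1 and 14.8% in replicate 2. In 3 of the 4 libraries the widely expressed form was the larger share at both steps, and in KO-labelled replicate 1 the muscle form was. By CPM the same shares were lower, 74.8% for Pgam2 and 59.8% for Eno3 in KO-labelled replicate 1. No test was made of these shares, since 2 libraries against 2 cannot reach a low exact p.

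The same was measured at other steps that have a muscle form. Pfkm, the muscle phosphofructokinase, made up 16.1% and 20.4% of the 3 phosphofructokinases in WT, 45.3% in KO-labelled replicate 1 and 23.8% in replicate 2. Pygm, the muscle glycogen phosphorylase, made up 7.99% and 5.11% of the 3 phosphorylases in WT, 45.9% in KO-labelled replicate 1 and 3.52% in replicate 2. Among glucose transporters, Slc2a1 made up 98.1% and 91.7% of Slc2a1, Slc2a3 and Slc2a4 in WT, 76.5% in KO-labelled replicate 1 and 97.7% in replicate 2. By FPKM, the aldolase and hexokinase shares differed little. The share of Aldoa among the 3 aldolases was between 94.9% and 96.4% in all libraries. Hk2 made up 38.9% to 45.8% of the summed Hk1, Hk2, Hk3 and Hkdc1, with KO-labelled replicates at 41.1% and 38.9%, inside or at the edge of the WT range. By CPM, the Hk2 share was 49.0% and 49.7% in WT, 56.0% in KO-labelled replicate 1 and 49.1% in replicate 2. The CPM share of Ldha in Ldha and Ldhb was 73.1% and 72.2% in WT, 65.2% in KO-labelled replicate 1 and 75.4% in replicate 2.

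**Figure D2:**
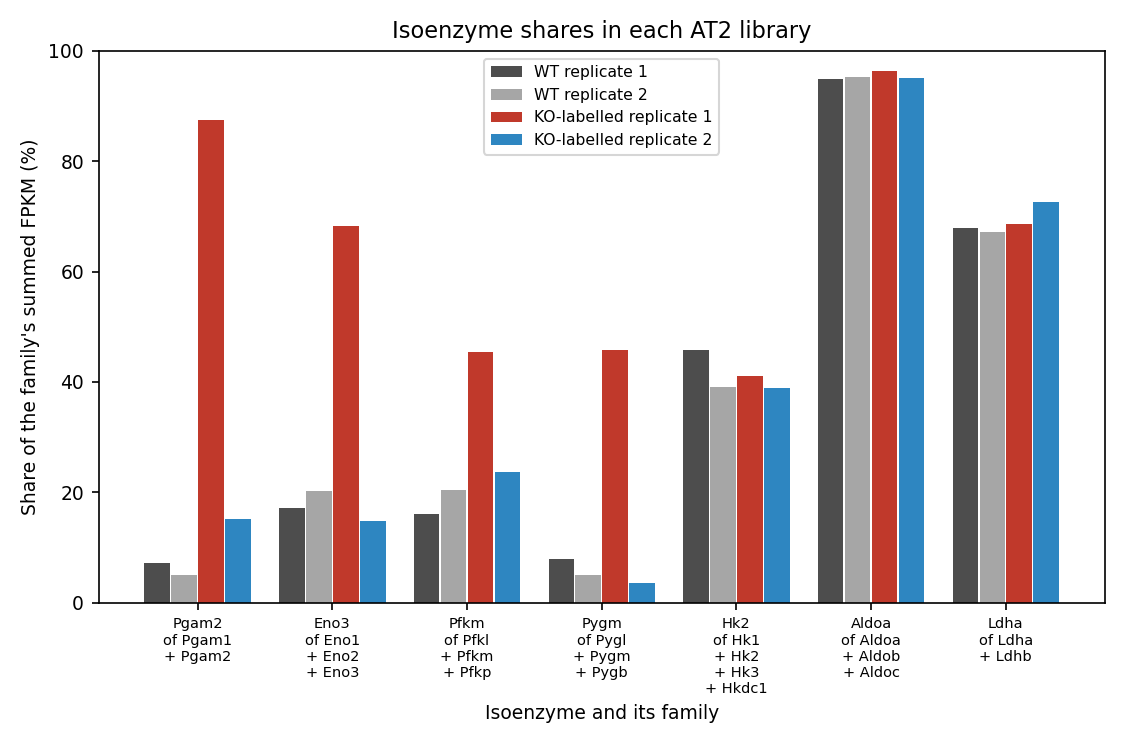
Share (%) of 1 isoenzyme in its family's summed FPKM, 1 bar per library. The muscle forms Pgam2, Eno3, Pfkm and Pygm reach 87.4%, 68.3%, 45.3% and 45.9% in KO-labelled replicate 1, and the shares of Hk2, Aldoa and Ldha stay within a few points of WT in that library.

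Glucose enters through Slc2a1 (GLUT1), the basal transporter. Slc2a1 (chromosome 4, 119108711 to 119137983, plus strand) was at 8.82 and 7.75 FPKM in the WT pair and 8.90 and 6.74 FPKM in KO-labelled replicates 1 and 2. The KO-labelled libraries lay on either side of the WT pair, and the edgeR log2 difference was -0.14 ± 0.25 (SE, adjusted p = 0.999). Slc2a4 (GLUT4), the insulin-responsive transporter of muscle and fat and no member of the set, had 2.57 FPKM in KO-labelled replicate 1, at most 0.200 FPKM in the WT pair and 0 fragments in KO-labelled replicate 2, which allows up to 0.425 CPM there.

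Hexokinases trap glucose in the cell as glucose 6-phosphate, and Hk2 is the inducible form. Hk1 (minus strand of chromosome 10, 62268855 to 62379908) measured 18.5 and 18.9 FPKM in the WT pair, 27.3 FPKM in KO-labelled replicate 1 and 14.8 FPKM in replicate 2. Hk2 (minus strand of chromosome 6, 82725025 to 82774454) measured 33.8 and 24.8 FPKM in the WT pair, 37.0 FPKM in KO-labelled replicate 1 and 24.1 FPKM in replicate 2. For both genes replicate 1 was the highest library and replicate 2 the lowest, with WT between them. For Hk1 the edgeR log2 difference was -0.01 ± 0.27 (SE, adjusted p = 0.999), and it was -0.40 without KO-labelled replicate 1 and 0.31 without replicate 2. The locus of the Hk1 row spans 1061 kb and is shared by 18 rows, so its count is uncertain in the same way as that of Pgam2. For Hk2 it was 0.33 ± 0.29 (SE, adjusted p = 0.999), 0.70 ± 0.12 (adjusted p = 0.000695) without KO-labelled replicate 2 and -0.15 ± 0.12 (adjusted p = 0.469) without KO-labelled replicate 1. The FPKM scale and the count scale also differed for Hk2, whose ratio ran from 29.8 to 44.2 over the libraries.

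Aldoa, the aldolase of muscle and most other tissues, splits fructose 1,6-bisphosphate and lies on chromosome 7 from 126795234 to 126800751 on the minus strand. It was at 173 and 169 FPKM in the WT pair, 308 FPKM in KO-labelled replicate 1 and 169 FPKM in replicate 2, from 1115, 2128, 4658 and 1759 fragments. Only KO-labelled replicate 1 stood above the WT pair, at 1.87 times pooled WT by CPM (95% interval 1.79 to 1.95), while replicate 2 was at 0.949 times (0.895 to 1.01). For Aldoa the edgeR log2 difference was 0.48 ± 0.31 (SE, adjusted p = 0.999). It was 0.89 ± 0.11 (adjusted p = 5.45e-05) without KO-labelled replicate 2 and -0.07 ± 0.12 (adjusted p = 0.756) without KO-labelled replicate 1.

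The last steps had small differences. Pkm (chromosome 9, 59656368 to 59679375, plus strand), which makes pyruvate, was at 102 and 89.0 FPKM in the WT pair and 108 and 87.2 FPKM in KO-labelled replicates 1 and 2, on either side of WT. Its edgeR log2 difference was 0.05 ± 0.21 (SE, adjusted p = 0.999). Ldha, the lactate dehydrogenase subunit favoured where lactate is made (chromosome 7, 46841475 to 46855627, plus strand), was at 182 and 183 FPKM in the WT pair and at 228 and 204 FPKM in KO-labelled replicates 1 and 2. By FPKM both KO-labelled libraries were above both WT libraries, but by CPM, at 294 and 285 against 305 and 295, both were below. On fragments the edgeR log2 difference was -0.06 ± 0.16 (SE, adjusted p = 0.999) and the limma log2 difference on log2(FPKM + 1) was 0.24 ± 0.19 (SE, adjusted p = 0.948), so the direction depends on the scale. The ratio of deposited count to FPKM for Ldha ran from 9.06 in KO-labelled replicate 1 to 12.1 in WT replicate 1.

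**Figure D3:**
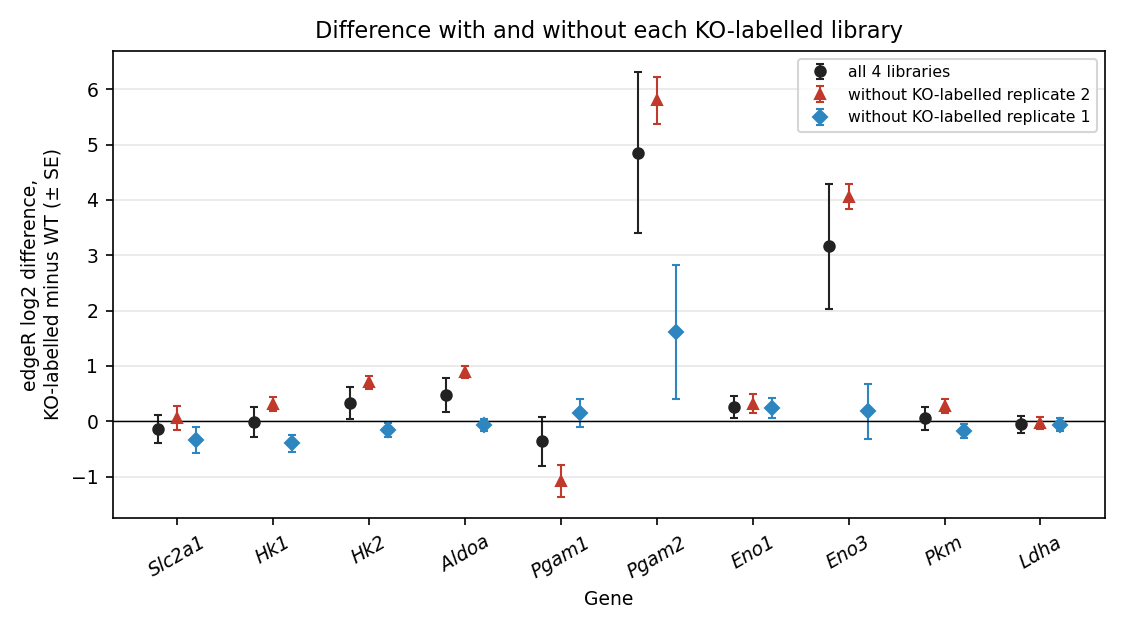
edgeR log2 difference, KO-labelled minus WT, with its SE as bars, for each gene with all 4 libraries (black), without KO-labelled replicate 2 (red) and without KO-labelled replicate 1 (blue). Pgam2 is at 4.85, 5.80 and 1.61 and Eno3 at 3.16, 4.06 and 0.18, while Ldha stays between -0.06 and -0.03.

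Counted together, 0 of the 10 genes passed edgeR's test with all libraries (adjusted p under 0.05), and 0% of the 11705 genes tested did. An unadjusted p under 0.05 was reached by 372 genes, among them Pgam2 and Eno3. limma on log2(FPKM + 1) also called 0 of the 10 and 0% of 11055 genes, and 535 of these reached that unadjusted p. DESeq2 called 1 of the 10. The median edgeR log2 difference over the 10 genes was 0.16, with 6 above 0 and 4 below, against a median of 0.02 over all genes tested. By CPM, both KO-labelled libraries were above both WT libraries for 3 of the 10 (Pgam2, Eno1 and Eno3), beside 16.5% of all genes tested. Both were below for 1 of the 10 (Ldha), beside 16.9%. Pgam2 passed the filter on low counts through the KO-labelled libraries alone, so it could only be counted as above. By FPKM, the groups overlapped for Eno3.

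The KO-labelled libraries differed from each other. Without KO-labelled replicate 2, edgeR called 4 of the 10 genes higher (Hk2, Aldoa, Pgam2 and Eno3), where 6.66% of genes tested were called higher, and 1 lower (Pgam1), where 6.3% were. Without KO-labelled replicate 1, it called 0 of the 10 in either direction, where 3.46% of all genes were called higher and 4.17% lower, 893 genes together. With that library left out, 1 of the 10 had an unadjusted p under 0.05 and the lowest adjusted p was 0.102, for Hk1. KO-labelled replicate 1 was the highest library by CPM for 7 of the 10 genes, beside 33% of all genes tested. It was more than 2-fold above the highest of the other 3 libraries for Pgam2 and Eno3, that is 2 of the 10, beside 1.34% of all genes tested. The 10 genes were chosen with earlier results of these data known, so the shares beside these counts are no independent comparison. For Pgam2 the filter on low counts also fixed the direction in these counts.

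The other enzymes of the pathway were read from a list of 24 genes, all in the table, of which 12 passed the filter. Of these 12, 9 had a positive and 3 a negative edgeR log2 difference with a median of 0.12, and 0 passed the test. Gapdh, the glyceraldehyde 3-phosphate dehydrogenase, was at 52.6 and 60.5 FPKM in the WT pair, 133.8 FPKM in KO-labelled replicate 1 and 40.0 FPKM in replicate 2. Pfkm was at 4.70 and 4.73 FPKM in the WT pair, 20.2 FPKM in KO-labelled replicate 1 and 5.19 FPKM in replicate 2. Gpi1, the glucose phosphate isomerase, was at 78.6 and 73.6 FPKM in the WT pair, 104.7 FPKM in KO-labelled replicate 1 and 54.8 FPKM in replicate 2. All 3 were highest in KO-labelled replicate 1, as Aldoa was. Without KO-labelled replicate 2, 10 of the 12 had a positive and 2 a negative edgeR log2 difference. The median was then 0.39, beside 0.008 over all genes tested. Without KO-labelled replicate 1, 4 were positive and 8 negative, with a median of -0.13. For Gpi1 the log2 difference was 0.54 ± 0.11 (SE) without KO-labelled replicate 2 and -0.49 ± 0.12 (SE) without KO-labelled replicate 1. The fits without each KO-labelled library thus gave Gpi1 opposite directions. Copies elsewhere in the genome share 51.7% of the 100-base windows of Pgk1 and 20.9% of those of Gapdh, and these values are uncertain for that reason.

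**Figure D4:**
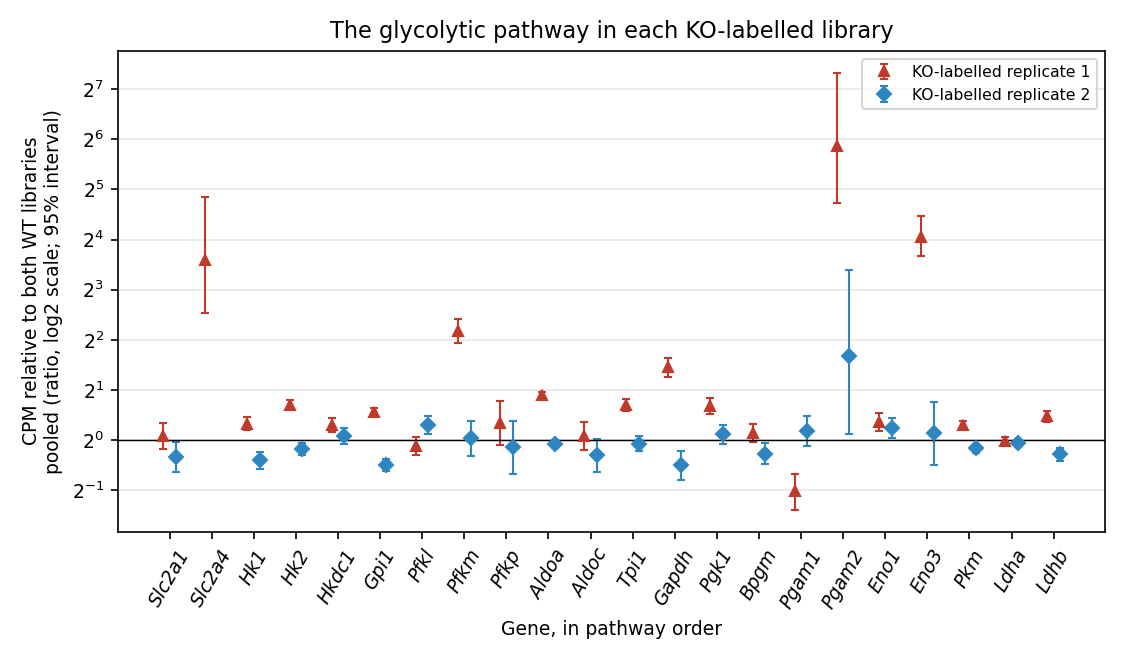
CPM in each KO-labelled library relative to both WT libraries pooled (log2 axis), in pathway order, with exact 95% counting intervals. KO-labelled replicate 1 (red) is at 58.5 for Pgam2, 16.6 for Eno3, 12.0 for Slc2a4, 4.50 for Pfkm and 2.73 for Gapdh. Replicate 2 (blue) is between 0.706 and 1.23 for every gene drawn other than Pgam2 at 3.21. Slc2a4 had 0 fragments in replicate 2 and has no blue point.

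Other muscle genes were also high in the library where Pgam2 and Eno3 were. The 14 listed genes of muscle energy use summed to 76.6 and 67.6 FPKM in the WT pair. In KO-labelled replicates 1 and 2 they summed to 492 and 79.0 FPKM. Not all are enzymes: Pvalb, Myoz1, Mb and Slc2a4 were on the list, at 108, 15.9, 35.6 and 2.57 FPKM in KO-labelled replicate 1. By CPM, 12 of the 14 were highest there and 10 more than 2-fold above every other library. Of the 6 that passed the filter, 5 were highest, beside 33% of genes tested, and 3 more than 2-fold above, beside 1.34%. Fbp2 was at 1.04 and 0.878 FPKM in the WT pair and 0.825 and 0.323 FPKM in KO-labelled replicates 1 and 2. Ak1, Gpd1 and Phka1 in replicate 1 were at 1.40, 1.44 and 1.22 times pooled WT by CPM. Ckm, Pvalb and Myoz1 are also among the fast skeletal muscle markers below, so the sums overlap. Ckm, the muscle creatine kinase, was at 0 and 1.22 FPKM in the WT pair, 163.9 FPKM in KO-labelled replicate 1 and 1.20 FPKM in replicate 2. Pygm was at 4.29 and 2.74 FPKM in the WT pair, 45.7 FPKM in KO-labelled replicate 1 and 2.07 FPKM in replicate 2. Both were high in 1 library and near the WT level in the other, the order seen for Eno3. Of this list, 6 genes passed the filter, 5 with a positive and 1 with a negative edgeR log2 difference (median 0.91), and 0 passed the test. Without KO-labelled replicate 2, 6 of the 6 were positive, with a median of 1.34, beside 0.008 over all genes tested. Without KO-labelled replicate 1, 4 were positive and 2 negative, with a median of 0.046. Phka1 was then at 0.45 ± 0.13 (SE) and Gpd1 at -0.80 ± 0.16 (SE).

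The 21 fast skeletal muscle markers, such as the actin Acta1 and the myosin light chain Myl1, summed to 8.43 and 17.2 FPKM in the WT pair, 1383 FPKM in KO-labelled replicate 1 and 19.9 FPKM in replicate 2. All 21 were highest by CPM in KO-labelled replicate 1 and 20 of them were more than 2-fold above every other library there. Only 6 passed the filter on low counts. Of these, 6 were highest there, beside 33% of genes tested, and 5 were more than 2-fold above, beside 1.34%. The filter asks for 1.31 CPM in 2 libraries, which Acta1 and Atp2a1 reached only in WT replicate 2 and KO-labelled replicate 1. They thus passed partly through the library where they were high, so the shares beside these counts are no independent comparison. At 0 fragments were 15 and 4 of the 21 in WT, 0 in KO-labelled replicate 1 and 7 in replicate 2. Acta1 was at 0.159 and 0.963 FPKM in the WT pair, 175.9 FPKM in KO-labelled replicate 1 and 0.589 FPKM in replicate 2. Myl1 was at 0 and 0.808 FPKM in the WT pair, 185.7 FPKM in KO-labelled replicate 1 and 1.92 FPKM in replicate 2. In the library where Pgam2 and Eno3 were high, fast muscle markers were therefore high as well, and their part in the result was not tested. The myogenic regulators summed to 3.19 FPKM in KO-labelled replicate 1 and to no more than 0.48 FPKM elsewhere, with 4 of 7 at 0 fragments in that library.

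Ranked by likeness of profile over the 4 libraries, the genes nearest to the muscle isoenzymes were sarcomere and muscle genes. Likeness was the Euclidean distance between log2(CPM + 1) profiles, each centred on its mean, among 11942 genes with a mean of at least 1 CPM. For Pgam2 the nearest were Myot, Mybpc2, Neb, Ckmt2 and Myh1, at distances of 0.51 to 0.70. For Eno3 they were Myot, Myh2, Nrap, Ryr1 and Trdn, at 0.22 to 0.44. Myot, a Z-disc protein and the nearest to both, had 0, 0, 140 and 1 fragments in WT replicates 1 and 2 and KO-labelled replicates 1 and 2. Myot, Ckmt2, Myh1, Myh2, Nrap and Trdn had at most 1 fragment in any library other than KO-labelled replicate 1. They entered the comparison through that library, where Pgam2 and Eno3 were also high. With 4 libraries, 1 high library sets such a ranking, so it is no independent result.

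Markers of other cell types were summed in the same way. Slow skeletal and cardiac markers summed to 110 and 113 FPKM in the WT pair, 146 FPKM in KO-labelled replicate 1 and 115 FPKM in replicate 2, most of it from Atp2a2, which many cells express. Of these 17 markers, 11 were highest by CPM in KO-labelled replicate 1 and 7 were more than 2-fold above every other library there. Only 3 passed the filter on low counts. Of these, 3 were highest there, beside 33% of genes tested, and 0 were more than 2-fold above, beside 1.34%. Myl2, Myl3, Actc1, Tnnt1 and Tnni1, named after their values were seen, had 27, 20, 28, 19 and 13 fragments in that library and 0 in the others. Myh7 was at 18.2 and 19.6 FPKM in the WT pair and 19.1 and 18.3 FPKM in KO-labelled replicates 1 and 2. Tnnt2 had 4 fragments in KO-labelled replicate 2 and 0 elsewhere, and Myl7, Nppa and Mybpc3 had 0 in every library. By CPM, 2 of the 17 were highest in WT replicate 1 and 1 in KO-labelled replicate 2. Smooth muscle markers summed to 1.68 and 1.59 FPKM in the WT pair and 12.3 and 1.24 FPKM in KO-labelled replicates 1 and 2. Des, which skeletal muscle also expresses, supplied 9.03 FPKM of the sum in replicate 1, and the other 6 summed to 3.30 FPKM there against at most 1.55 FPKM in the other libraries. Macrophage markers summed to 7.84 and 8.16 FPKM in the WT pair and 14.6 and 7.49 FPKM in the KO-labelled replicates, nearly all from Cd68. Endothelial markers summed to 1.31 and 0.600 FPKM in WT and to 2.70 and 0.829 FPKM in KO-labelled replicates 1 and 2. By CPM, 8 of 9 were highest in replicate 1 and 6 were more than 2-fold above every other library there. Of the 2 that passed the filter, 2 were highest and 0 more than 2-fold above, beside the same shares of genes tested. Erythroid markers stayed at or under 3.09 FPKM in sum, neutrophil markers at or under 6.68 and basal markers at or under 0.088. Lymphocyte markers summed to 13.9 to 22.9 FPKM and fibroblast markers to 28.3 to 81.6 FPKM. Club and ciliated markers summed to 808 to 1318 FPKM and AT1 markers to 1216 to 1493 FPKM. On fragments, 8 of 10 AT1 markers had a negative and 2 a positive edgeR log2 difference, with a median of -0.23. By CPM, both KO-labelled libraries were below both WT libraries for 5 of them, beside 16.9% of genes tested. Of 9 fibroblast markers tested, 7 had a positive and 2 a negative difference, with a median of 0.52, and without KO-labelled replicate 2 all 9 were positive. In both lists 0 passed the test with all libraries. The part of these cells in the results was not tested.

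Genes around the pathway were read from 3 further lists. Of 19 tested regulators of glycolysis and of the fates of pyruvate, 12 had a positive and 7 a negative edgeR log2 difference, with a median of 0.03, and 0 passed the test. Pfkfb2, which makes the activator of phosphofructokinase fructose 2,6-bisphosphate, was at 68.5 and 70.5 FPKM in the WT pair and 96.8 and 99.5 FPKM in KO-labelled replicates 1 and 2. Mpc1, a subunit of the mitochondrial pyruvate carrier, was at 44.1 and 48.1 FPKM in the WT pair and 39.7 and 75.1 FPKM in KO-labelled replicates 1 and 2. Pfkfb2 was above WT in both KO-labelled libraries and Mpc1 in replicate 2 alone. By CPM, Pfkfb2 was at 528 and 549 in the WT pair and 563 and 726 in KO-labelled replicates 1 and 2, so replicate 1 was only slightly above. Its ratio of deposited count to FPKM was 40.8 in KO-labelled replicate 1 and 54.9 or more in the other libraries, so the scales differ for this gene. The edgeR log2 difference of Pfkfb2 was 0.25 ± 0.19 (SE, adjusted p = 0.999). For Pfkfb2 it was 0.44 ± 0.11 (SE) without KO-labelled replicate 1 and 0.06 ± 0.11 (SE) without replicate 2. For Mpc1 it was 1.06 ± 0.18 (SE) without KO-labelled replicate 1 and -0.25 ± 0.22 (SE) without replicate 2.

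Of 16 tested genes of gluconeogenesis and glycogen, 13 had a positive and 3 a negative edgeR log2 difference, with a median of 0.19, and 0 passed the test. Pygl, the liver form of glycogen phosphorylase, was at 16.4 and 16.7 FPKM in the WT pair and 31.0 and 18.7 FPKM in KO-labelled replicates 1 and 2, above WT in both. Of 19 tested regulators and targets of HIF and Myc outside glycolysis, 10 had a positive and 9 a negative difference, with a median of 0.04, and 0 passed the test. Myc, a transcription factor that drives several glycolytic genes, was at 2.22 and 3.06 FPKM in the WT pair and 1.06 and 1.32 FPKM in KO-labelled replicates 1 and 2, below WT in both. Its edgeR log2 difference was -1.23 ± 0.52 (SE, adjusted p = 0.999).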

How the data were processed

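RNA-seq of AT2 cells gave 4 libraries, 2 WT and 2 KO by title. The authors deposited 1 table of 22565 genes with FPKM and estimated count columns for each library. Cuffdiff 2.2.1 with Cufflinks, HISAT2 2.0.4 and cutadapt 1.9.3 are listed, with build mm10, in the submitters' processing notes, without parameters or annotation. The deposited FPKM values are, per the file headers, fragments scaled to length and depth. The deposited counts were multiples of 1 constant per library; divided by it, 90.9% to 92.6% of values were whole (within 0.05), and they were then rounded. Totals of 4167114 to 9507432 fragments make 3 fragments, the limit that a count of 0 allows, 0.316 to 0.72 CPM.

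Fragments were tested with edgeR 4.0.16 (quasi-likelihood, TMM, filterByExpr with a minimum count of 10, Benjamini-Hochberg over all genes, threshold 0.05) in R 4.3.3. Alternatives were other scalings and filters, DESeq2 1.42.0, limma 3.58.1 on log2(FPKM + 1) or + 0.1, a replicate block and leaving out each library. The SE given for edgeR is the absolute log2 difference divided by the square root of the quasi-likelihood F statistic, since the model was not asked for one. The edgeR step was tested on simulated data. Ratios of a KO-labelled library to pooled WT carry exact 95% binomial intervals.

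The members and lists were chosen with earlier results of these data known. Named genes were all 10 members; from the other glycolysis and muscle energy lists, genes reaching 1 FPKM in any library could be named; from the regulator, glycogen and HIF lists, up to 4 by the smallest edgeR p; from marker lists, the 3 most abundant; and the 5 nearest profiles of Pgam2 and Eno3. Not every gene the rule allowed is named. Sequences came from RefSeq (GRCm38.p6; all 10 members matched) and GENCODE M21.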

Additional observations from a re-analysis of the deposited data

How the results depend on the processing

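Over the 10 genes and 14 alternatives, 118 of 140 log2 differences kept their sign and side of the threshold, 16 changed sign and 6 passed the threshold. Eno1, Eno3 and Pgam2 kept their sign in all 14. For Pgam2 the direction was fixed wherever a filter was used. Without a filter its log2 difference was 4.86 with edgeR, 4.85 with DESeq2 and 2.57 with limma on log2(FPKM + 1). The number of genes called, 0 in edgeR with all libraries, was 5 without the filter on low counts, 7 with DESeq2 and 2 with the replicate block, in which same-numbered libraries shared a term. Leaving out 1 library gave 1 to 1518 genes called, and 0 to 5 of the 10 members; the highest came without KO-labelled replicate 2, and 893 genes were called without KO-labelled replicate 1. DESeq2 called 1 member, Pgam2, and the replicate block called 0. Same-numbered libraries did not deviate together (r = 0.035 across 11705 genes, 2 pairs), so the numbers were not taken as pairs. Hk1 changed sign with unscaled totals (log2 difference 0.00066), the 1 FPKM filter (0.0026) and limma on log2(FPKM + 1), with or without a filter (0.10), or on log2(FPKM + 0.1) (0.10). Ldha changed sign with limma on log2(FPKM + 1), with or without a filter (0.24), and on log2(FPKM + 0.1) (0.24). Among fits without 1 library, log2 differences ran from -0.34 to 0.054 for Slc2a1, -0.40 to 0.31 for Hk1, -0.15 to 0.70 for Hk2, -0.069 to 0.89 for Aldoa, -1.08 to 0.15 for Pgam1 and -0.18 to 0.28 for Pkm. The cause of these changes was not tested. With 3 fragments in each WT library, depth limits the fold given for Pgam2.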
